A study of Mus musculus with 2 samples.

Results

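The genes described here were 59 markers of DNA synthesis and cell division, read as 2 lists of 35 G2M genes and 24 S genes, out of 31053 genes in the table of a single-cell RNA-seq series on mouse back skin. They were matched by gene symbol, and all 59 had unique molecular identifiers (UMIs, each counting 1 captured RNA molecule) in both libraries. Keratinocyte types were set from other genes, so that no member took part in placing a cell.

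The series compared 1 library of back skin cells from a control mouse with 1 library from a miR-205 inducible mouse, in which doxycycline switches on a miR-205 transgene through the Krt14 promoter of basal keratinocytes and of the outer layer of the follicle. Both mice were 53 days old, carried a K14-H2BGFP allele that marks the same cells with nuclear GFP, were matched for sex, and are labelled C57BL/6, while the study's methods say that the transgene was made in FVB mice. The extraction notes say that both were fed doxycycline for 4 days from day 49, whereas the treatment label of the control reads untreated. Cells were sorted so that epidermal, follicle and dermal cells entered at 3:5:2, so the sort sets the proportions of cell types. With 1 mouse and 1 library per group no test between the groups was possible, and every interval below covers counting error only.

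Cells copy their DNA in S phase and, after the gap called G2, separate the copies in M phase. S genes encode the MCM helicase that opens replication origins, polymerases, clamps and enzymes that make nucleotides. Most of them are switched on by E2F factors before S phase starts. G2M genes encode cyclins, mitotic kinases, kinesins, kinetochore proteins and the ubiquitin machinery that ends mitosis. Many are held down in resting cells through a promoter element called CHR, and many of their promoters also carry one called CCAAT. In resting (telogen) follicles the bulge stem cells (HF-SCs) are mostly outside the cycle, the hair germ below them is the first compartment to re-enter it, and basal interfollicular epidermis (IFE) and sebaceous gland divide throughout life.

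Promoter windows from RefSeq on GRCm38.p6, 250 bases before and 50 after the annotated start, matched 48 of the 59 members, 31 G2M and 17 S. Ccna2, Aurkb, Tpx2, Cdca2, Mcm4, Gins2, Rfc2, Gmnn, Tipin, Dscc1 and Exo1 were not matched. Both strands were searched for TTTGAA (CHR), CCAAT, and TTTGGCGC or TTTCGCGC (E2F). The CHR letters were in 23 of 31 G2M windows (74.2%), in 4 of 17 S windows (23.5%) and in 20.2% of the 27025 genes with a window. CCAAT was in 23 of 31 G2M windows and 11 of 17 S windows (64.7%), against 41.1% of all genes, and both elements together were in 19 G2M windows (61.3%), 3 S windows (17.6%) and 7.97% of all genes. The E2F letters were in 4 of 17 S windows (Mcm5, Mcm6, Uhrf1 and Pola1), in 1 of 31 G2M windows (Cdk1) and in 0.929% of all genes. A match describes the letters and is not a measured site.

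The 7 stretches that follow belong to members that the results below turn on, 4 G2M genes (Top2a, Ube2c, Cdc20 and Cenpf) and 3 S genes (Mcm5, Mcm6 and Rrm2). Each is the 150 bases just before the annotated start, read 5′ to 3′ on the gene's strand, with every match in capitals. Top2a lies at chr11:99024190-99024339 on the minus strand, Ube2c at chr2:164769779-164769928 on the plus strand, Cdc20 at chr4:118437344-118437493 and Cenpf at chr1:189688087-189688236 on the minus strand, Mcm5 at chr8:75109359-75109508 on the plus strand, Mcm6 at chr1:128359706-128359855 on the minus strand and Rrm2 at chr12:24708104-24708253 on the plus strand.
Top2a: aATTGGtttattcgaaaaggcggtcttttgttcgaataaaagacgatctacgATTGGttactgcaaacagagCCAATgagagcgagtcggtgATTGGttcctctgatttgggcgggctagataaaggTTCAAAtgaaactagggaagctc
Ube2c: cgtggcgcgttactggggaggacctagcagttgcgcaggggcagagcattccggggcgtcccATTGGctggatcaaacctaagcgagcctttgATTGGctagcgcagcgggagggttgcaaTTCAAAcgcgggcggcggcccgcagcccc
Cdc20: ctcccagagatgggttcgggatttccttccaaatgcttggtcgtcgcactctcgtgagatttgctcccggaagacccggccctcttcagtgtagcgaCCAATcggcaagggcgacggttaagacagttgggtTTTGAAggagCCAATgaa
Cenpf: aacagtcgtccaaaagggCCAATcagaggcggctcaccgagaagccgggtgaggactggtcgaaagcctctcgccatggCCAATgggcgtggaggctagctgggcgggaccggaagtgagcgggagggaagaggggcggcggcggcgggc
Mcm5: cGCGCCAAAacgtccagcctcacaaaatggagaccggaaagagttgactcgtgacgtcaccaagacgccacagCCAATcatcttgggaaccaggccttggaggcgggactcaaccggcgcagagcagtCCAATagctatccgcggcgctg
Mcm6: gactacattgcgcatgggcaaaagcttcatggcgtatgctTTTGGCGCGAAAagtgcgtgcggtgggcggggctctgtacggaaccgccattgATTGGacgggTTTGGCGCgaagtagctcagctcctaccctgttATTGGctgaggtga
Rrm2: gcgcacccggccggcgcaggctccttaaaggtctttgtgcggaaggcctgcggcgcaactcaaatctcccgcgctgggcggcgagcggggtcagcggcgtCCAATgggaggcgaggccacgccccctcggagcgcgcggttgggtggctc

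Counting from -1 at the base before the start, the CHR letters began at -23 in Top2a, -29 in Ube2c and -18 in Cdc20. CCAAT, read on either strand, occurred 4 times in the Top2a stretch and 2 times each in those of Ube2c, Cdc20 and Cenpf. The Cenpf stretch held no full CHR match, though its longer window did and is counted above. The Mcm6 stretch held 3 E2F matches, beginning at -110, -106 and -47, of which the first pair share bases, and that of Mcm5 held 1 at -149. The Rrm2 stretch held CCAAT alone.

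The control library had 4545 barcodes and the induced library 4264, with 55465594 and 49733560 UMIs. After the study's cell filter 3936 and 3628 cells were kept, of which 3502 and 2994 were keratinocytes by their marker UMIs, with medians of 12677.5 and 12748.5 UMIs. In them the members gave 49328 UMIs in control and 37893 in induced. The libraries shared 11 barcodes, 9 and 5 of which were kept keratinocytes, and none of these reached 10 UMIs of either list. Gate markers differed between the libraries (Krt14 was 81.0 and 62.2 UMIs per 10000 in the Sox9-positive cells described below), so that a gate need not hold the same cells in both, and its part in the differences was not tested.

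Keratinocytes high in division genes were few in both libraries and were a smaller share of the induced one. To compare cells of unlike depth, 5000 UMIs were drawn at random from each. Keratinocytes with fewer, 129 in control and 132 in induced, were dropped. A cell was counted as high in a list from 10 UMIs of it. In control 137 of 3373 cells were high in G2M genes (4.06%, exact binomial 95% interval 3.42 to 4.78), and in induced 77 of 2862 (2.69%, 2.13 to 3.35). The difference was -1.37 percentage points (Newcombe interval -2.27 to -0.47), larger than counting error allows, with no replicate to give the spread between mice. Cells high in S genes were 54 of 3373 in control (1.60%) and 31 of 2862 in induced (1.08%), a difference of -0.52 points whose interval, -1.10 to 0.07, included 0. Without thinning the G2M shares were 10.9% and 9.29%.

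**Figure D1:**
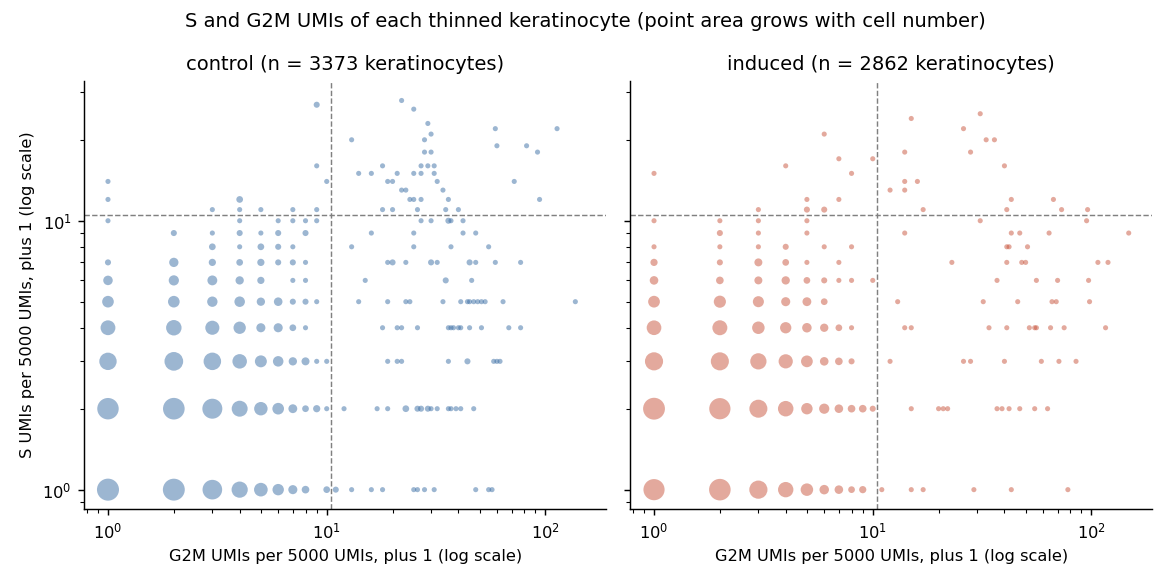
Each point is a position in S and G2M UMIs per 5000 UMIs (both axes logarithmic, 1 added), its area growing with the number of keratinocytes there; dashed lines mark 10 UMIs. Most cells of both libraries lie in the lower left, and the right-hand field holds 137 control and 77 induced cells.

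The 2 lists were read together to order the cells along the cycle. In control 14 cells were high in S genes alone, 40 in both lists and 97 in G2M genes alone. The induced library had 13, 18 and 59 such cells. These 151 and 90 cells carried 49.4% and 48.6% of all G2M UMIs of the thinned keratinocytes but only 21.4% and 15.8% of the S UMIs. They were deeper than the others, with medians of 20738 and 22758.5 UMIs against 12786 and 12887.5, which is why cells were thinned. Of the S plus G2M UMIs in all keratinocytes, S genes made up 35.0% in control and 36.0% in induced, a difference of 1.00 points (-0.16 to 2.17). The sign of that difference depended on 6 broadly expressed members and on the processing. Without Hmgb2, Cks1b, Cks2, Slbp, Pcna and Ckap2 it was -2.66 points (-4.49 to -0.84). With all members it was -0.61 without thinning and -0.34 with no upper limit on genes, both with intervals that included 0.

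The smaller share was uneven across the range of G2M UMIs. Cells with 20 to 29 G2M UMIs were 45 in control (1.33%) and 8 in induced (0.28%), a difference of -1.05 points (-1.52 to -0.62). Cells with 50 or more were 22 in control (0.65%) and 27 in induced (0.94%), a difference of 0.29 points (-0.15 to 0.77). From 30 UMIs upward the shares were 1.96% and 1.82%, and the interval of their difference, -0.82 to 0.56, included 0. The bands were chosen after the values were seen.

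**Figure D2:**
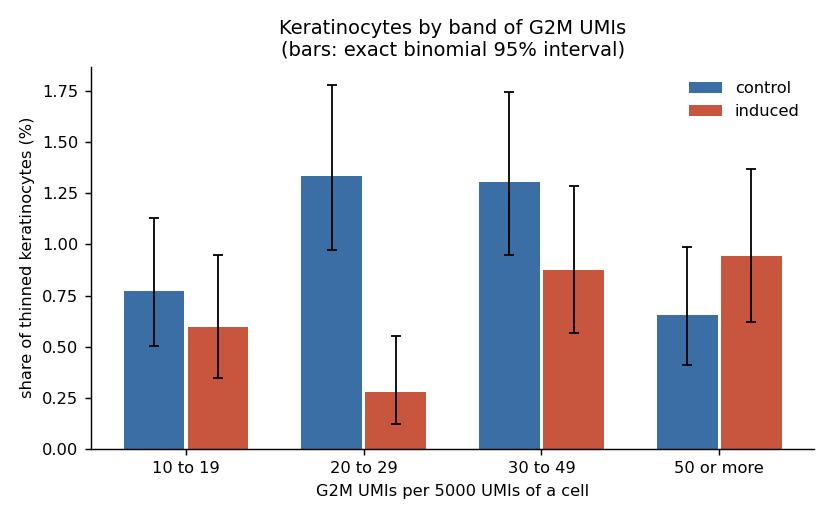
Share of thinned keratinocytes (percent, axis from 0) in 4 bands of G2M UMIs per 5000, control and induced side by side, with exact binomial 95% intervals. The 20 to 29 band holds 1.33% of control and 0.28% of induced cells, and the highest band 0.65% and 0.94%.

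Among keratinocyte types, the share of G2M-high cells was highest in sebaceous gland-like cells, with intervals that overlapped those of the Sox9-positive cells below, and no such cell was detected among HF-SC-like cells after the cell filter and thinning. Sebaceous gland-like cells (Scd1, Mgst1 and other lipid genes) were high in G2M genes in 10 of 106 control cells (9.43%, 4.62 to 16.7) and 9 of 128 induced cells (7.03%, 3.27 to 12.9). HF-SC-like cells (Cd34 or Krt24 with Krt14) were high in 0 of 249 control cells, where 3 counts, the limit that a count of 0 allows, are 1.20% (exact binomial upper limit 1.47%). They were high in 0 of 300 induced cells, where that limit is 1.0% (exact 1.22%). With cells of 5000 or more genes kept there was 1 of 250 in control and 0 of 301 in induced, and without thinning 5 of 260 and 2 of 314. One induced HF-SC-like cell was high in S genes, with 14 S and 0 G2M UMIs of 5000. Of bulge genes the HF-SC-like gate did not use, Postn was 12.0 and 10.6 and Lhx2 2.11 and 2.63 UMIs per 10000. IFE basal-like cells had 0.75 and 1.10 of Postn and 0.081 and 0.11 of Lhx2. Lhx2 set HF-SC-like cells less apart from hair germ-like cells (1.68 and 2.06) and inner bulge-like cells (1.33 and 1.58). Postn was 2.08 and 2.83 in the former and 3.82 and 6.12 in the latter. Krt15 and Sox9 did not set HF-SC-like cells above inner bulge-like cells. Krt15 was 87.5 and 111.8 against 89.5 and 136.5, and Sox9 9.55 and 9.62 against 10.5 and 13.7. Krt6a, listed as an inner bulge marker, was higher in HF-SC-like cells, at 31.6 and 30.3 against 10.5 and 12.0. Upper follicle cells (Krt79, Defb6 or Cst6) also had few G2M-high cells, with 2 of 468 in control and 0 of 386 in induced, as were suprabasal IFE cells (Krt1 or Krt10), with 1 of 135 and 0 of 133, and inner bulge-like cells (Krt75 or Fgf18), with 0 of 54 and 1 of 157.

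Basal populations lay between these. IFE basal-like cells (Ly6a or Igfbp3) were high in G2M genes in 28 of 731 control cells (3.83%) and 17 of 534 induced cells (3.18%), a difference of -0.65 points (-2.68 to 1.55), and high in S genes in 10 of 731 and 10 of 534. Hair germ-like cells (Lgr5, Lef1, Gli1 or Msx2 without Krt24 and with at most 1 Cd34 UMI) had 7 of 132 high cells in control (5.30%) and 5 of 125 in induced (4.00%), a difference of -1.30 points (-7.02 to 4.40) whose sign turned under 3 of 11 alternatives. In both types the difference was smaller than counting error allows to be seen. Of genes the gates did not use, Cdh3 barely set hair germ-like cells apart. On the scale used for Postn above it was 0.54 and 0.60, against 0.46 and 0.45 in Sox9-positive cells. Runx1 did more, at 2.84 and 2.43 against 1.36 and 1.51. In hair germ-like cells Epgn was 8.72 and 2.66, and Thbs1 18.1 and 6.80. Epgn was 7.22 and 4.79 in IFE basal-like cells, and Thbs1 27.7 and 7.86 in HF-SC-like cells. Whether the hair germ-like gate held the same cells in both libraries was not tested. Keratinocytes that met no gate but had at least 2 Sox9 UMIs, called Sox9-positive after that follicle transcription factor, were the largest group of high cells: 61 of 1014 in control (6.02%, 4.63 to 7.66) and 29 of 787 in induced (3.68%, 2.48 to 5.25). Theirs, -2.33 points (-4.31 to -0.30), was the one type-level difference whose interval left out 0 among the 9 types. Without thinning it was -2.02 points, and its interval, -4.66 to 0.70, included 0. Bulge genes were higher in the induced Sox9-positive cells: Cd34 was 0.52 and 1.39, Krt24 0.061 and 0.23, Lhx2 0.33 and 0.78 and Krt15 31.4 and 46.0. Whether this group held the same cells in both libraries was not tested. In the band of 20 to 29 G2M UMIs were 24 control and 1 induced Sox9-positive cells, and from 30 upward the shares were 2.37% and 2.54%. Without the Sox9-positive cells the shares of the remaining keratinocytes were 3.22% and 2.31%, a difference of -0.91 points (-1.88 to 0.070). With the induced types weighted to the control mix, the difference in all keratinocytes was -1.14 points in place of -1.37.

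**Figure D3:**
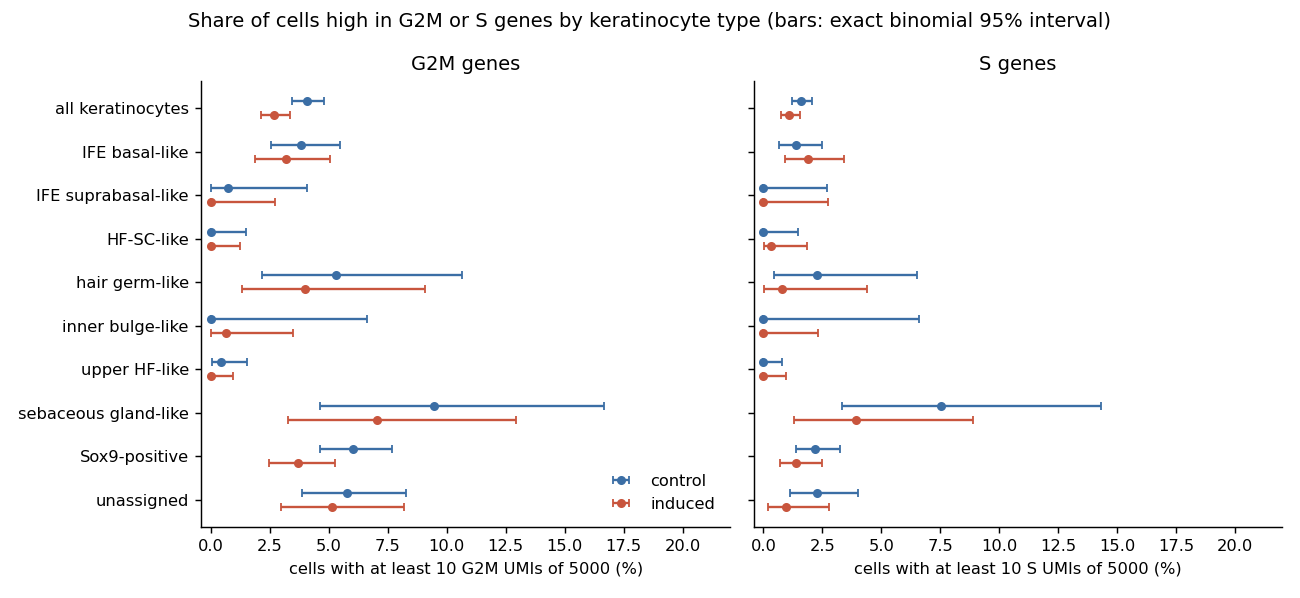
Share of cells (percent) with at least 10 G2M UMIs (left) or S UMIs (right) of 5000 by keratinocyte type, control and induced, with exact binomial 95% intervals. Sebaceous gland-like cells sit highest in both panels, HF-SC-like cells at 0 for G2M genes, and the induced point lies below control in the Sox9-positive cells.

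A larger part of the G2M UMIs than of the S UMIs lay in these high cells, most of which were high in G2M genes alone. For each member its own UMIs were left out when the cells high in either list were chosen, and the share of its UMIs that fell in them was taken over both libraries. The median was 82.3% over the 35 G2M genes and 29.5% over the 24 S genes. Over the 11106 genes with at least 100 UMIs it was 4.14%, close to the 3.87% of cells that they were. The set is chosen mainly by the G2M list, so each list was also read in the cells high in its own genes alone: the median was 81.8% for G2M genes in G2M-high cells and 16.7% for S genes in S-high cells, where all genes had medians of 3.68% and 1.44%. In the cells high in either list 10 of the G2M genes passed 90%, among them the cyclins Ccna2 (95.3%) and Ccnb2 (93.7%), the spindle protein Nusap1 (97.6%) and the ubiquitin-conjugating enzyme Ube2c (91.7%), whereas 3 fell under 50%: Cks1b (21.5%), Cks2 (26.0%) and Hmgb2 (26.8%). Hmgb2, a chromatin protein that bends DNA, had a UMI in 79.6% of control and 78.8% of induced keratinocytes, against 5.48% and 4.91% for the proliferation marker Mki67, which had one in 0 of 260 control and 1 of 314 induced HF-SC-like cells. Among the S genes Exo1 (66.7%, 15 thinned UMIs) and Dscc1 (53.6%, 28 thinned UMIs) were the 2 above 50%. The sliding clamp Pcna (8.36%), the histone mRNA-binding protein Slbp (8.64%) and the helicase subunit Mcm4 (9.14%) lay mostly in other cells.

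**Figure D4:**
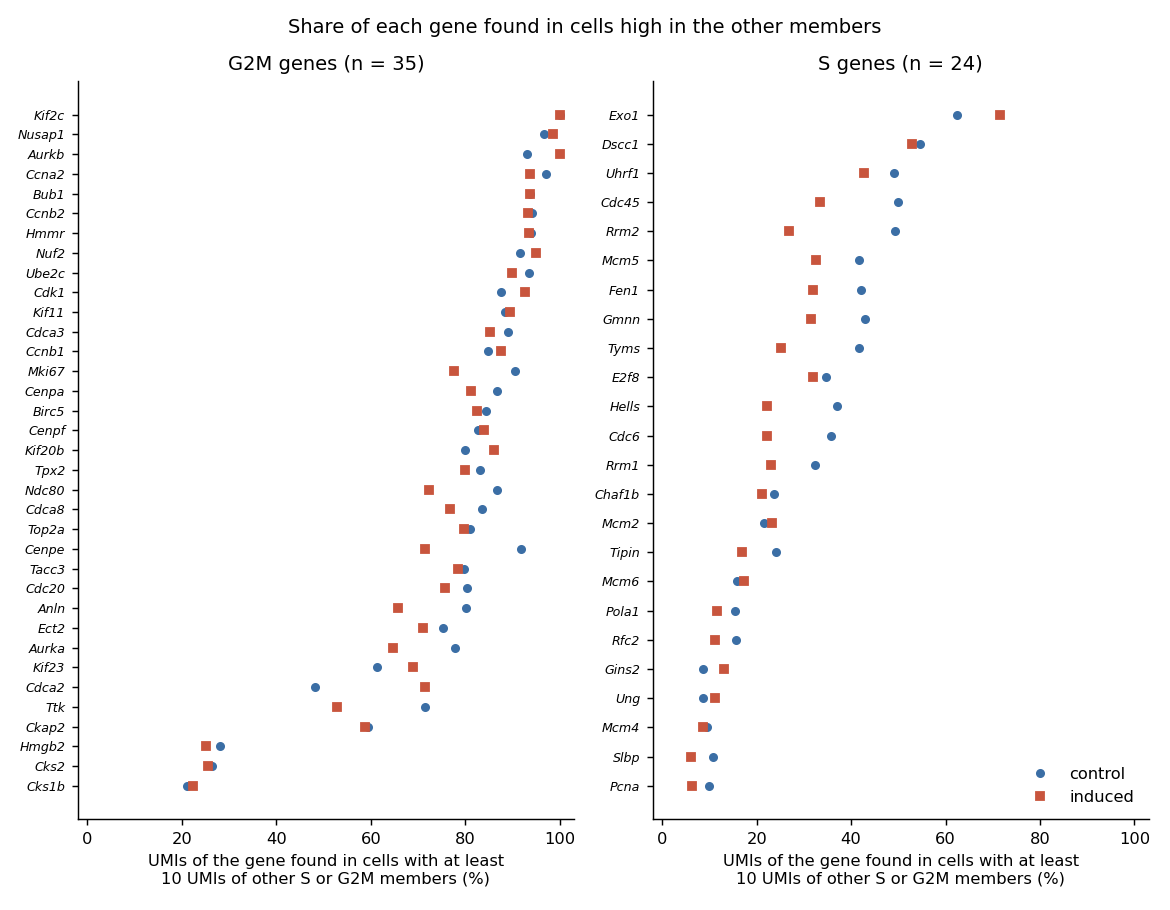
Percent of each gene's thinned UMIs found in keratinocytes with at least 10 UMIs of the other S or G2M members, 1 row per gene, control as circles and induced as squares. G2M genes gather at the right except Hmgb2, Cks1b and Cks2, and S genes spread from 8.36% for Pcna to 66.7% for Exo1.

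Within the high cells the members followed the phases. Means per cell were highest in cells high in G2M genes alone for 19 of the 35 G2M genes and in cells high in both lists for the other 16, and in no case in cells high in S genes alone. Of the 24 S genes, 8 had their highest mean in cells high in S genes alone and 16 in cells high in both. The late genes were the clearest: Cenpa, the centromere histone, averaged 0.037, 0.88 and 2.33 UMIs across the 3 classes, and Cdc20, which activates the anaphase-promoting complex, 0.037, 0.55 and 1.42. Top2a, which untangles DNA, was already at 3.43 in cells high in both lists and at 3.08 in cells high in G2M genes alone. The origin-firing subunit Gins2 ran the other way, with 0.53, 0.22 and 0.045, and so did the uracil glycosylase Ung, with 0.36, 0.069 and 0.0064. The ribonucleotide reductase subunit Rrm2 was highest in cells high in both, with 0.29, 1.10 and 0.32. Since the classes rest on the other members, this order describes how the lists hang together and was not tested.

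Per high cell, most G2M genes were more abundant in the induced library. Of 35 members, 30 were higher per cell in the 77 or fewer induced cells than in the 137 or fewer control cells, 17 with an interval above 0 and none with one below it, at a median log2 ratio of 0.58. Ccnb1, the mitotic cyclin, averaged 0.53 and 1.01 UMIs per high cell in control and induced (log2 ratio 0.95, 0.47 to 1.43), and Cdk1, its kinase, 1.01 and 1.79 (0.82, 0.47 to 1.17). Top2a averaged 3.15 and 3.20 and Mki67 1.72 and 1.61, both with intervals that included 0. The median of G2M UMIs in cells high in either list was 28 in control and 36 in induced. That median sums the same members, and cells with 10 to 29 G2M UMIs were 71 in control and 25 in induced. The median, the ratios and the bands above are therefore not separate results. The cells were chosen by at least 10 UMIs of the other G2M members, so the members are not independent of that choice or of one another. No such ratio was taken for genes outside the lists. The intervals treat UMIs from the cells of 1 mouse per group as independent. Of the 16 S genes with at least 20 UMIs in S-high cells, 7 were higher and 9 lower, at a median log2 ratio of -0.13. Intervals lay above 0 for 0 of them and below 0 for 2, Tyms (-0.72, -1.51 to -0.02) and Rrm1 (-1.06, -2.02 to -0.26).

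Summed over all keratinocytes, S genes were lower in induced almost throughout, whereas G2M genes split. All 59 members passed the minimum of 20 UMIs over both libraries. Of the 24 S genes 21 were lower and 3 higher, 12 with a counting interval below 0 and none above, at a median log2 ratio of -0.27. Of the 35 G2M genes 19 were lower and 16 higher, 11 with an interval below 0 and 8 above, at a median of -0.11. The median over all 13269 genes tested was 0.058. None of the 59 reached a 2-fold difference, the size used for a call, which 3.56% of all genes reached upward and 1.45% downward. UMIs of 1 gene arrive in clumps from a few cells, as the 5 cells richest in a member held up to 37.7% of its UMIs in a library, so intervals that treat UMIs as independent are too narrow. The share of all genes whose interval left out 0 was not computed in any population, so counts of such members have no background.

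Of the 19 G2M genes that were lower, 11 had a counting interval below 0. Top2a had 2202 UMIs in control and 1287 in induced, 46.8 and 31.8 CPM, UMIs scaled to the total of the population (log2 ratio -0.56, -0.66 to -0.46), the largest difference of the list and seen in 9.08% and 7.08% of cells. Ndc80, a kinetochore subunit that grips microtubules, had 108 and 64 UMIs (-0.53, -1.01 to -0.08). Cdca8, a subunit of the chromosomal passenger complex, had 724 and 453 (-0.46, -0.63 to -0.29), and Anln, a scaffold of the cleavage furrow, 940 and 632 (-0.35, -0.50 to -0.21). Mki67, which coats mitotic chromosomes, had 948 and 672 UMIs, 20.1 and 16.6 CPM (-0.28, -0.42 to -0.13). The broadly expressed members were lower too: Hmgb2 had 13268 and 9991 UMIs, 281.9 and 247.0 CPM (-0.19), the CDK subunit Cks2 had 3630 and 2476 (-0.33), and its relative Cks1b 1590 and 1144 (-0.26).

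Of the 16 G2M genes that were higher, 8 had a counting interval above 0. Cenpf, a kinetochore and nuclear matrix protein, had 568 UMIs in control and 641 in induced, 12.1 and 15.9 CPM (0.39, 0.23 to 0.56). Ccna2 had 285 and 317 (0.37, 0.14 to 0.61), Ube2c 1278 and 1322 (0.27, 0.16 to 0.38) and Cenpa 947 and 957 (0.23, 0.10 to 0.37). Their counts were close in the 2 libraries, and the ratios are of CPM, which divides by the UMIs of all keratinocytes, of which the induced library had fewer. Kif2c, a kinesin that takes microtubules apart, had 52 and 61 UMIs (0.45, -0.11 to 1.01) and the mitotic kinase Aurka 79 and 88 (0.37, -0.08 to 0.83), both within counting error. The fraction of cells with a UMI was no higher for Ube2c, at 4.68% and 4.48%, or for Cenpf, at 4.20% and 3.94%.

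Among the S genes the lowest ratio was that of Hells. Hells, a chromatin remodeler, had 340 UMIs in control and 200 in induced, 7.22 and 4.94 CPM (-0.55, -0.81 to -0.29). Among the helicase subunits Mcm4 had 691 and 449 UMIs (-0.40, -0.58 to -0.23), Mcm5 476 and 321 (-0.35, -0.56 to -0.14), Mcm6 646 and 451 (-0.30, -0.48 to -0.12) and Mcm2 283 and 226 (-0.10, -0.36 to 0.15). For nucleotide supply, Rrm1 of ribonucleotide reductase had 1208 and 801 UMIs (-0.37, -0.50 to -0.24) and the thymidylate synthase Tyms 964 and 664 (-0.32, -0.46 to -0.17). The clamp Pcna had 4232 and 3288, 89.9 and 81.3 CPM (-0.15), its loader subunit Rfc2 704 and 506 (-0.26), and the fork protection factor Tipin 656 and 466 (-0.27). Cdc6, which loads the helicase, and the nuclease Exo1 were among the lowest ratios at -0.48 and -0.47 but rested on 36 and 22 and on 31 and 19 UMIs. The 3 that were not lower were Slbp at 2422 and 2182 UMIs (0.07), Ung at 201 and 177 (0.04) and the replication licensing inhibitor Gmnn at 263 and 226 (0.00), each within counting error.

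**Figure D5:**
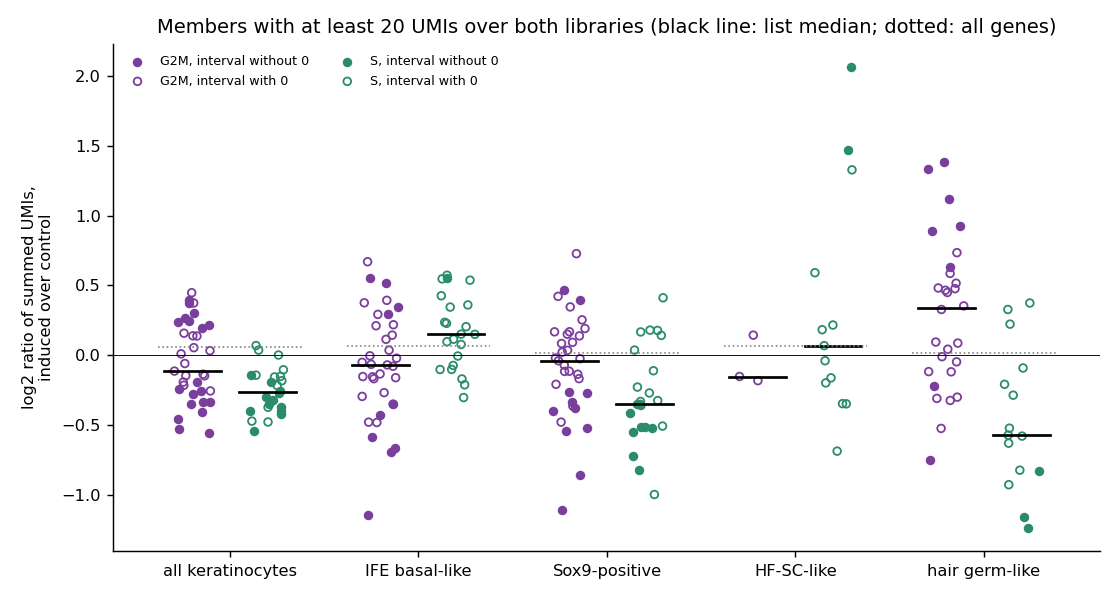
log2 ratio of summed UMIs, induced over control, of each member with at least 20 UMIs, in 5 populations; filled points have a counting interval that leaves out 0, black lines are list medians and dotted lines the median of all genes. In all keratinocytes every member lies within 1 of 0, and the 2 medians part most in the hair germ-like cells, at 0.34 for G2M and -0.57 for S genes.

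In IFE basal-like cells the lists did not share that pattern. Of 35 G2M genes 13 were higher and 22 lower (median -0.07), and of 22 S genes with at least 20 UMIs 15 were higher and 7 lower (median 0.15), beside a median of 0.063 over 10826 genes. One member was called, Ndc80, at 31 UMIs in control and 10 in induced (-1.14, -2.38 to -0.13), where 3.78% of all genes were called higher and 1.31% lower. A single control cell held 16 of its 31 UMIs. Top2a had 543 and 266 UMIs (-0.59, -0.81 to -0.37), Mki67 245 and 134 (-0.43, -0.74 to -0.12), and the kinesins Kif20b 71 and 32 (-0.70) and Kif11 76 and 35 (-0.67). On the higher side were Birc5, the survivin subunit of the passenger complex, at 109 and 115 UMIs (0.52, 0.13 to 0.91), Ccna2 at 60 and 65 (0.56, 0.03 to 1.09) and Aurka at 17 and 20 (0.67, -0.33 to 1.70).

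Among the S genes of the IFE basal-like cells Mcm2 stood out, with 73 and 79 UMIs, 6.15 and 9.04 CPM (0.55, 0.08 to 1.03), the one S gene of 22 whose interval left out 0. The E2F repressor E2f8 had 39 and 42 UMIs (0.55, -0.12 to 1.21) and the cohesion factor Dscc1 10 and 11 (0.57, -0.80 to 1.97). The lowest were the histone chaperone subunit Chaf1b at 59 and 35 (-0.30), Tyms at 274 and 174 (-0.21) and Rrm1 at 367 and 240 (-0.17), all within counting error. Pcna had 1006 and 690 UMIs, 84.8 and 78.9 CPM (-0.10).

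In HF-SC-like cells the G2M list was almost silent. Only Hmgb2, Cks1b and Cks2 of the 35 reached 20 UMIs over 260 control and 314 induced cells, and none was called. Hmgb2 had 427 and 459 UMIs (-0.15, -0.35 to 0.04), Cks1b 75 and 79 (-0.18) and Cks2 37 and 49 (0.14). Mki67 had 0 and 1 UMI, and Top2a 9 and 2, of which 5 came from a single control cell. The cells had median depths of 10024 and 10217 UMIs.

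In HF-SC-like cells 3 S genes were called higher, of 13 tested, beside 3.21% of all genes higher and 2.32% lower. Mcm6 had 6 UMIs in 6 control cells and 32 in 28 induced cells, 2.22 and 9.92 CPM (2.06, 0.88 to 3.71). Gins2 had 9 and 31 UMIs, in 8 and 27 cells (1.47, 0.42 to 2.78), and the flap nuclease Fen1 5 and 16, in 5 and 16 cells (1.33, -0.09 to 3.22). At most 3 of these UMIs came from any 1 cell, so the difference lay in scattered cells, none of which was high in S genes beyond the single cell named above. The other licensing genes did not move alike: Mcm4 had 33 and 46 UMIs (0.22), Mcm2 7 and 7, and Mcm5 11 and 3. The polymerase subunit Pola1 had 15 and 11 UMIs (-0.69), Tipin 32 and 30 (-0.35), Tyms 16 and 15 (-0.35) and Pcna 264 and 307 (-0.04). With cells of 5000 or more genes kept, the ratio of Mcm6 was 1.37. The list median was 0.068, beside 0.062 over the 9270 genes tested. With a minimum of 1 UMI per gene it was -0.11 over 24 S genes, beside 0.061 over all genes.

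In hair germ-like cells the lists parted in direction. Of 28 G2M genes tested 18 were higher and 10 lower in induced, at a median log2 ratio of 0.34. Of 15 S genes 3 were higher and 12 lower, at a median of -0.57, beside 0.012 over 8411 genes. Cycle genes outside the lists did not part in this way: of 27 other G2M genes 8 were higher and 19 lower (median -0.19), and of 20 other S genes 3 were higher and 17 lower (median -0.34). Called higher were 3 G2M genes, where 6.42% of all genes were called higher and 3.09% lower. Cenpf had 45 UMIs in control and 115 in induced, 26.8 and 70.4 CPM (1.39, 0.89 to 1.93), Ube2c 68 and 167 (1.33, 0.92 to 1.77), and Cdc20 31 and 66 (1.12, 0.50 to 1.80). These values rest on very few cells, as 5 cells held 82.6% of the induced Cenpf UMIs and 95.8% of those of Ube2c.

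The passing hair germ-like cells show this directly. The 7 control cells had 25, 35, 36, 36, 41, 81 and 91 G2M UMIs of 5000, and the 5 induced cells 39, 45, 55, 84 and 147, so that the ranges overlapped and the single highest cell was induced. Without the richest cell of each library the G2M median was 0.12 and the S median -0.51, and Cenpf stood at 1.02, Ube2c at 1.38 and Cdc20 at 1.06. With the mitochondrial limit at 5% the G2M median was -0.42 over 14 genes and Cenpf stood at 0.55, so that both the direction of the list and that call rest on the cell filter. Among the other G2M genes Top2a had 122 and 109 UMIs (-0.12), Mki67 64 and 66 (0.09), Cdk1 61 and 41 (-0.53), Cdca8 44 and 34 (-0.33) and Cks1b 120 and 69 (-0.75, -1.20 to -0.32).

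The lower S genes of the hair germ-like cells were spread over more cells, though part of the difference lay in the few high cells. In thinned hair germ-like cells, those high in either list held 68 of 271 S UMIs in control and 34 of 194 in induced. The remaining thinned cells averaged 1.62 S UMIs in control and 1.33 in induced. Pcna had 200 UMIs in 88 control cells and 109 in 66 induced cells, 118.9 and 66.7 CPM (-0.83, -1.18 to -0.49). Mcm4 had 42 UMIs in 32 cells and 17 in 16 (-1.24, -2.17 to -0.42) and Mcm5 26 in 17 and 11 in 9 (-1.16, -2.36 to -0.13), and these 2 were called lower. Mcm6 had 24 and 12 UMIs (-0.93, -2.09 to 0.10), and Mcm2, short of 20 UMIs in all, 16 and 1. Slbp, Rfc2 and Gins2 were on the higher side at 105 and 119, 27 and 33, and 15 and 19 UMIs (0.22, 0.33 and 0.37), each within counting error. Mcm6 and Gins2 were thus higher in induced HF-SC-like cells while Mcm6 was lower in induced hair germ-like cells, a difference between the types that cannot be tested with 1 library per group.

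The Sox9-positive cells, whose share of G2M-high cells differed by more than counting error in thinned cells only, had lower values mainly among the S genes. Of 35 G2M genes 15 were higher and 20 lower (median -0.04, all genes 0.016) and of 23 S genes 6 were higher and 17 lower (median -0.35). One G2M gene was called lower, the checkpoint kinase Bub1 at 42 and 15 UMIs (-1.11, -2.10 to -0.26), beside 2.99% of all genes higher and 1.46% lower. Top2a had 929 and 501 UMIs (-0.55, -0.71 to -0.39), Pola1 174 and 77 (-0.83, -1.24 to -0.44) and Tyms 296 and 141 (-0.72, -1.02 to -0.43).

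In sebaceous gland-like cells, the type with the highest share of G2M-high cells, all 20 S genes tested were lower in induced, at a median log2 ratio of -0.75, and 24 of 30 G2M genes were lower, at -0.49. The median of all 8700 genes was -0.043. Called lower were 7 S and 5 G2M genes and none was called higher, where 3.39% of all genes were higher and 4.66% lower. Chaf1b had 47 and 23 UMIs (-1.37, -2.17 to -0.64), Ung 28 and 14 (-1.33), Mcm4 44 and 25 (-1.16), Mcm5 74 and 44 (-1.10) and Top2a 156 and 93 (-1.10, -1.49 to -0.72). High cells numbered 14 of 106 in control and 11 of 128 in induced when either list counted, and they held 57.9% and 34.6% of the S UMIs and 70.4% and 69.9% of the G2M UMIs of the thinned cells.

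In all keratinocytes the cycle genes outside the lists had medians below 0 as the members did. Of 30 other S genes 8 were higher and 22 lower in all keratinocytes (median -0.16), and of 36 other G2M genes 14 were higher and 22 lower (median -0.10), with none called. In sebaceous gland-like cells the medians were -0.31 for 22 other S genes and -0.35 for 27 other G2M genes, with 3 and 4 called lower. Their most abundant members were the histone chaperone Nasp at 6109 and 5059 UMIs (-0.05), the dUTPase Dut at 1653 and 1556 (0.13) and the deubiquitinase Usp1 at 911 and 826 (0.08), and, of the G2M kind, the tubulin Tubb4b at 38122 and 33267 (0.02), the histone H2afz at 20930 and 16526 (-0.12) and the lamina protein Tmpo at 4444 and 3306 (-0.21). The non-members most like the G2M genes, by the share of their UMIs in G2M-high cells, were Iqgap3 (97.7%), Neil3 (97.2%), Esco2 (96.2%), Depdc1a (95.1%) and Hist1h2ap (94.9%). For the S-high cells they were Cnih2 (65.7%), Rad51ap1 (64.5%), Neil3 (55.6%), Hist1h2ap (49.8%) and Asf1b (46.3%).

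The cell filter itself removed G2M-high cells. Of keratinocytes with 5000 or more detected genes, which the study's limit discards, 12 of 33 in control (36.4%, 20.4 to 54.9) and 18 of 44 in induced (40.9%, 26.3 to 56.8) were high in G2M genes. With them the G2M shares were 4.37% and 3.27%, a difference of -1.11 points (-2.05 to -0.15), and the median log2 ratio of the G2M genes in all keratinocytes was 0.11 in place of -0.11, while that of the S genes was -0.21. With a stricter mitochondrial limit of 5% the G2M difference was -0.79 points and its interval, -2.07 to 0.54, included 0. Among kept cells that were no keratinocytes, 12 of 259 in control and 20 of 438 in induced were high in G2M genes (4.63% and 4.57%).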

How the data were processed

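Back skin cells of 1 control and 1 miR-205 inducible mouse were profiled on the same 10x chip, 1 library each. The authors deposited filtered count matrices of UMIs per gene and barcode, made with Cell Ranger 3.0.1 per the file headers and with build mm10 per the submitters' processing notes. The counts carry no normalization. The feature tables of both libraries were identical and hold 35 repeated symbols, none used.

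The members and all lists were chosen with earlier results of these data known, and the gate thresholds were set after marker values were seen. Following the study's limits, cells with more than 200 and fewer than 5000 genes and under 10% mitochondrial UMIs were kept. Keratinocytes and their types were gated on marker UMIs per 10000, without members. For shares, each cell was thinned at random to 5000 UMIs, and a cell passed at 10 UMIs of a list. Sums of UMIs per population were compared as log2 ratios of CPM (pseudocount 0.5, at least 20 UMIs over both libraries, called at 2-fold). Intervals at 95% (Clopper-Pearson for shares, Newcombe for differences, exact conditional binomial for ratios) cover counting error only, and no p-value was computed. No doublets were removed: the threshold that Scrublet (in scanpy 1.11.5) set by itself marked 4 barcodes per library and so had not worked, and removal of the highest 165 and 145 scores was an alternative. Named were the 8 members of each list with most UMIs in all keratinocytes, the 3 highest and 3 lowest ratios of each list in a main population, Mki67, Top2a, Pcna and Mcm2, Mcm4, Mcm5 and Mcm6. Other members named, such as Ccna2, Ccnb1 and those of Sox9-positive and sebaceous gland-like cells, were chosen after their values were seen. The genes most like a list were the 5 non-members, of at least 100 UMIs, with the largest share of UMIs in passing cells. Promoter windows came from RefSeq on GRCm38.p6. Scripts used Python 3.11.15, numpy 2.4.6, scipy 1.17.1 and pandas 2.3.3 and were tested on simulated data. The alternatives covered cell limits, doublets, gates, thinning, thresholds, scaling, pseudocount and minimum UMIs.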

Additional observations from a re-analysis of the deposited data

How the results depend on the processing

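No paired analysis was possible because each group had 1 library, and no library could be left out. Apart from the shares without thinning, alternatives were computed only for all keratinocytes, HF-SC-like, hair germ-like and IFE basal-like cells. The lower G2M share of all induced keratinocytes kept its sign under 10 of 10 alternatives (-2.70 to -0.79 points, the first at 5 UMIs), the lower S share under 9 of 9 and the lower S median under 11 of 11. At 5 UMIs of a list the S share of all keratinocytes differed by -1.66 points, the G2M share of HF-SC-like cells by -2.14 and the S share of hair germ-like cells by -5.89. Without thinning the S share differed by -1.64 points in all keratinocytes and by -2.19 in IFE basal-like cells, and the S share of S plus G2M UMIs by -0.61. That last value was -0.34 with no upper limit on genes and -2.66 without the 6 broad members. With mitochondrial UMIs under 5% the S medians were -0.088 in all keratinocytes and -1.02 in hair germ-like cells, and the G2M medians -0.42 in hair germ-like cells, -0.21 in HF-SC-like cells and 0.13 in all keratinocytes. With no upper limit on genes the G2M medians were 0.55 in hair germ-like cells, -0.24 in HF-SC-like cells and 0.11 in all keratinocytes. The HF-SC-like G2M median was -0.22 with median-of-ratios scaling, and the hair germ-like one -0.12 over genes of at least 100 UMIs. The G2M share of hair germ-like cells differed by 0.17 points with mitochondrial UMIs under 5%, 0.063 without the highest Scrublet scores and 0.017 without thinning. The IFE basal-like G2M median changed sign under 3 of 12 alternatives. Of 934 values for single members 887 moved by less than their counting interval and 47 by more, and none that was called changed sign. The causes were not tested. Leaving out shared barcodes, Hmgb2 or the hair germ-like cell richest in G2M UMIs was chosen after seeing the data. Sums in HF-SC-like and hair germ-like cells rest on few UMIs per gene.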

Other observations

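Among kept cells that were not keratinocytes, 2 of 259 in control (0.77%, exact binomial interval 0.094 to 2.76) and 12 of 438 in induced (2.74%, 1.42 to 4.74) were high in S genes. Keratinocytes removed for 10% or more mitochondrial UMIs were high in G2M genes in 13 of 184 control cells (7.07%) and 9 of 120 induced cells (7.50%). Keratinocytes that met no gate and had fewer than 2 Sox9 UMIs were high in G2M genes in 28 of 484 control cells (5.79%) and 16 of 312 induced cells (5.13%), and in S genes in 11 and 3 of them. These shares are values without an explanation, from 1 library per group.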
